A study of Mus musculus with 4 samples.

Results

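The heat shock genes described here are Hsf1, the transcription factor that switches on the heat shock response, and 9 chaperone genes: Hspa1a, Hspa1b, Hspa8, Hsph1, Dnajb1, Hsp90aa1, Hsp90ab1, Hspd1 and Hspe1. They were taken by symbol, and all 10 are among the 16360 gene symbols of the count table. The cells were recruited alveolar macrophages, which derive from monocytes that enter the airspaces after lung injury, sorted for high CD64, high CD11b and low Siglec-F. They came from male mice, 8 to 10 weeks old, of the strain that the labels spell CD57/Bl6. One group was homozygous for the R213G variant of EC-SOD (extracellular superoxide dismutase, encoded by Sod3) and the other was wild type (WT). Every mouse had received an intratracheal dose of bleomycin (100 µl, 1 U/ml) 7 days before the sort, so both groups carry the injury and no group without bleomycin is analysed here. There were 2 poly(A) libraries per genotype, 4 in all. It is not stated whether a library is 1 mouse or a pool, so the spread between libraries may be technical. In the gene-by-gene test, each p-value rests on spread estimates shared across all genes tested, not on 2 libraries per genotype alone.

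Heat shock proteins are chaperones: they bind unfolded or partly folded proteins and help them to fold, to be held or to be degraded. In unstressed cells HSF1 is held inactive by chaperones. When unfolded proteins accumulate, HSF1 is released, forms a trimer and binds heat shock elements, which are inverted repeats of the unit GAA, in front of the inducible genes. HSP70 proteins (Hspa1a and Hspa1b inducible, Hspa8 constitutive) work with HSP40 partners such as DNAJB1, which stimulate their ATPase, and with the nucleotide exchange factor HSPH1. HSP90 (Hsp90aa1 inducible, Hsp90ab1 constitutive) matures kinases and receptors, and HSP60 with HSP10 (Hspd1 and Hspe1) forms the folding chamber of mitochondria.

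None of the 10 genes was called different between R213G and WT macrophages. The constitutive HSP90 gene Hsp90ab1 and the constitutive HSP70 gene Hspa8 were the most abundant in every library, and the inducible HSP70 genes Hspa1a and Hspa1b were the least. These levels carry no correction for reads shared between gene copies. Hsf1 and Hspa1a stood lower in both R213G libraries than in both WT libraries, and Hsp90aa1 and Hspe1 stood higher in both. In no case did the difference pass the test. Among all 13575 genes tested, 0 (0%) were called. The genotypes did not overlap for 28.9% of them, 15.2% lower and 13.7% higher in R213G.

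The control sequences of the pairs are shown first, and the identity of the transcripts, which bears on what the counts can tell apart, follows. RefSeq promoter windows on GRCm38.p6, which run from 250 bases before to 50 bases after an annotated start, were matched for 6 of the 10 genes (9 windows). They were matched for Hspa1a, Hspa1b, Dnajb1, Hsph1, Hspd1 and Hspe1. Hspa1a and Hspa1b lie in the same orientation on chromosome 17, with their starts 12918 bases apart. The 250 bases before the start follow for both, 5′ to 3′ on the minus strand, from chr17:34972157-34972406 and chr17:34959239-34959488, with capitals for the bases that differ between the 2 copies.
Hspa1a: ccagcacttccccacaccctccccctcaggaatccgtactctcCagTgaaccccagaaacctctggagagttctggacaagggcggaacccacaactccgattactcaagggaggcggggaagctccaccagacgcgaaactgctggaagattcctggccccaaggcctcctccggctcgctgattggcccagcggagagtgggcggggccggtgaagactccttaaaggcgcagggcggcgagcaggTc
Hspa1b: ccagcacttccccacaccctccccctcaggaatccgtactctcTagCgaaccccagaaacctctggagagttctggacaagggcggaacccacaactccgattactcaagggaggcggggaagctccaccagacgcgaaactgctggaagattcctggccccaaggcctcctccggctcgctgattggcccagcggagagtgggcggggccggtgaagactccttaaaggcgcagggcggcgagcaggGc
Only 3 of these 250 bases differed.

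Heat shock elements were searched as 2 adjoining inverted units, GAANNTTC or TTCNNGAA (N is any base), and as 3 units, in which either form is followed, after any 2 bases, by another inverted unit. Each form covers both strands, and the 2-unit matches inside a 3-unit match were counted as well. Over all 32851 RefSeq windows, 15.1% held a 2-unit match and 0.603% a 3-unit match. The Hspa1a and Hspa1b windows each held 1 match of 2 units, 104 bases before the start, and none of 3. The 2 Dnajb1 windows held none. Hspd1 and Hspe1 are transcribed away from each other from a common region, with 215 bases between the Hspd1 start at 55087932 and the Hspe1 start at 55088148, and these windows held the same run of 4 units. That site, at chr1:55088053-55088082 on the plus strand, has its first unit 89 bases before the Hspe1 start. The window of a second Hspd1 start, at 55088243, held none. Hsph1 held a 3-unit match 15 bases after the nearest start, at chr5:149636280-149636308 on the minus strand. Both sites are shown to give the letters found, with the units and the bases between them in capitals.
Hspd1-Hspe1 site: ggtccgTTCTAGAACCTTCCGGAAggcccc
Hsph1 site: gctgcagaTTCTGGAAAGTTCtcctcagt
A match describes letters only, and no binding was measured here.

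The annotated transcripts also differed in how far a read could be assigned to 1 gene. For each gene the longest protein-coding GENCODE vM21 transcript was divided into overlapping windows of 50 bases, and each window was looked up in the transcripts of every other gene. For Hspa8, 74.8% of windows recurred in another gene, in 13 genes in all, led by the processed pseudogene Gm15459 (70.0% of windows). The share was 66.3% for Hspa1a and 62.3% for Hspa1b, mostly in each other, and 58.5% for Hsp90aa1, led by the transcribed processed pseudogene Gm12346 (51.5%). It was 44.8% for Hspd1 and 44.8% for Hspe1. Hsf1 and Hsph1 shared none, Dnajb1 shared 0.4% and Hsp90ab1 shared 4.5%. With windows of 100 bases the shares fell to 63.4% for Hspa8, 56.5% for Hspa1a, 49.9% for Hspa1b, 47.5% for Hsp90aa1, 26.9% for Hspd1 and 22.4% for Hspe1. How multi-mapping reads were handled, and the read length, are unknown here, so the counts of these 6 genes may lack reads or hold reads of their copies.

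**Figure D1:**
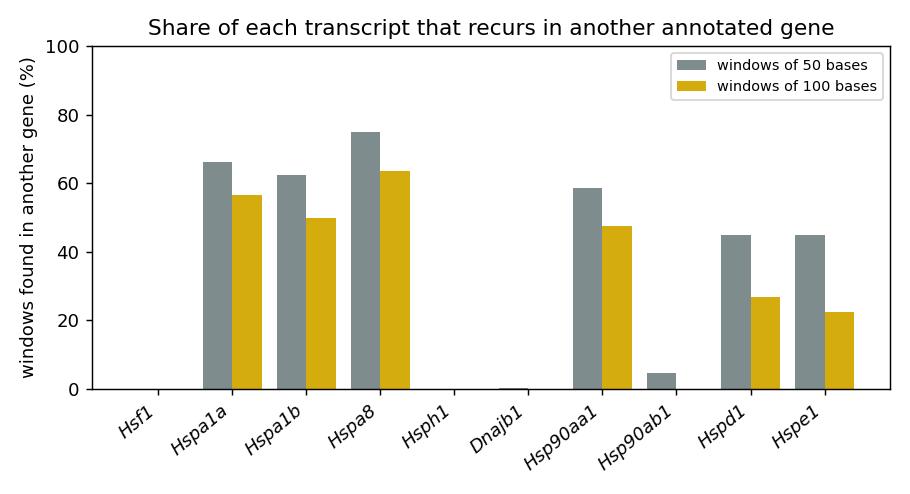
Bars give the percentage of windows of 50 bases (grey) or 100 bases (yellow) of each gene's longest protein-coding transcript (x axis) that recur in the transcripts of another annotated gene (y axis, %). Hspa8, Hspa1a, Hspa1b and Hsp90aa1 stand above 40% at both lengths, while Hsf1 and Hsph1 are at 0.

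Most of the copies that have a row in the table and share windows with these genes carried few counts. Gm5844, with 36.8% of the Hsp90aa1 windows, and AC117239.2, with 35.2% of the Hspe1 windows, have no row. The handling of multi-mapping reads is unknown, so few counts of a copy cannot show how many shared reads were lost. The 8 other genes in the table that share at least 1% of windows with Hspa8 summed to 186 and 138 counts for R213G replicates 1 and 2, against 176 and 101 for the WT replicates, at most 1.56% of the Hspa8 counts of the same library. Gm12346 had counts of 3 and 5 (R213G) against 1 and 16 (WT). Exons of Hspd1 and Hspe1 overlap on opposite strands over 112 bases, or 7.6% of the Hspe1 exon bases. Exons of Hspa1a overlap those of Gm20481 on the opposite strand over 564 bases (19.0%). Whether counting used strand is unknown here.

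The labelled variant is an amino acid change, which gene counts cannot check, and Sod3 itself had counts of 4 and 47 (R213G) against 47 and 96 (WT). The libraries held between 33488569 and 35176210 counts, and the 10 genes together took 0.153% to 0.174% of them. R213G replicate 1 stood apart in having the fewest genes detected (13584 against 14598 to 15194 in the others) and the most counts of the non-coding transcript Gm42418 (1689 CPM against 513 to 702). All 10 markers fixed for recruited macrophages were present in the table, led by lysozyme Lyz2 at 19065 to 25101 CPM, where CPM is counts per 1000000 of the TMM-normalized library size. Markers of other cell types summed to much less than the 25121 to 31765 CPM of that list, most of which was Lyz2. Sums over different genes do not measure shares of cells. The sums were 137 to 187 CPM for 5 of 10 neutrophil markers, 8.23 to 17.4 CPM for 7 of 10 T and NK cell markers and 3.22 to 6.50 CPM for 2 of 8 fibroblast and mural markers. They were 145 to 188 CPM for 4 of 8 B cell markers, mostly Cd22, 99.6 to 143 CPM for 5 of 8 endothelial markers, mostly Vwf, and 44.6 to 158 CPM for 8 of 8 dendritic cell markers, led by Ccr7. They were 150 to 298 CPM for 10 of 10 epithelial markers, led by Cdh1 and highest in R213G replicate 1, and 1238 to 1610 CPM for 10 of 10 resident alveolar macrophage markers, mostly Itgax. No listed marker that is in the table was at 0 in all 4 libraries.

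Levels of different genes were compared only per length, as CPM per kb of the union of annotated exons. On this scale Hsp90ab1 was at 365 and 350 in R213G and 385 and 340 in WT, and Hspa8 at 81.3 and 69.3 in R213G and 79.3 and 61.8 in WT. Hspd1 (21.3 to 25.6) and Hspe1 (19.4 to 21.6) followed, with ranges that overlapped, then Dnajb1 (12.1 to 14.7) and Hsp90aa1 (7.49 to 9.43). Hsph1 (5.01 to 6.002) and Hsf1 (4.09 to 5.26) overlapped, as did Hspa1a (0.872 to 2.03) and Hspa1b (0.530 to 1.24) at the bottom. The order above and below the overlapping pairs was the same in every library. The union counts retained introns, which lengthens Hsf1 to 7099 bases and Hspa8 to 4301 bases. Per kb of the longest protein-coding transcript, an alternative chosen after the data were seen, Hsf1 moved from a mean of 4.77 to 16.1 and from the eighth to the fifth place, Hspa8 from 72.9 to 131, and Hspe1 (39.1) stood above Hspd1 (26.4). Hsp90ab1 and Hspa8 stayed highest and Hspa1a and Hspa1b lowest. Neither scale corrects for windows shared with other genes, and their part in these places was not tested.

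**Figure D2:**
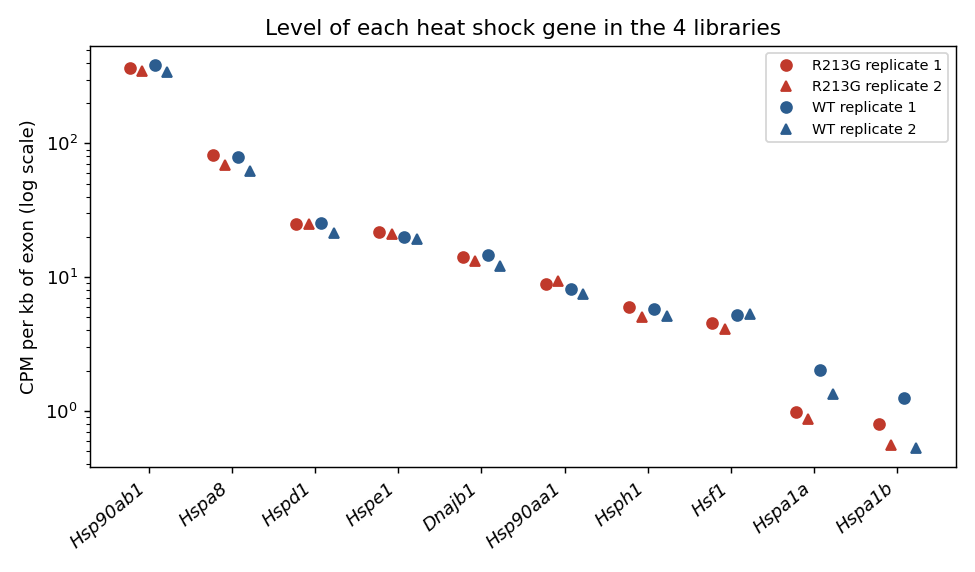
Points give the level of each heat shock gene (x axis, ordered by mean) in each library as CPM per kb of union exon length (y axis, log scale), with red for R213G, blue for WT, circles for replicate 1 and triangles for replicate 2. Hsp90ab1 lies between 340 and 385 in every library and Hspa1b between 0.530 and 1.24.

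The first comparison asked whether the transcript of the regulator itself differed between genotypes. Values from here on are log2 fold changes from the edgeR fit, R213G minus WT, with SE, or CPM as mean ± SD over the 2 libraries of a genotype. Gaps within a genotype are differences in log2 CPM. Of all 13575 genes tested, 0 (0%) passed at an adjusted p under 0.05, and 302 (2.22%) had an unadjusted p under 0.05, 127 higher (0.936%) and 175 lower (1.29%) in R213G. The 0 became 2 without R213G replicate 2, and the 302 became 1960 without R213G replicate 2 and 71 without WT replicate 1. Hsf1 (chromosome 15, 76477422 to 76501913, plus strand, GRCm38) had counts of 1099 (R213G replicate 1), 1009 (R213G replicate 2), 1222 (WT replicate 1) and 1282 (WT replicate 2), the order kept for counts from here on. Both R213G libraries lay below both WT libraries, at 30.6 ± 2.26 CPM against 37.2 ± 0.267 CPM. The gap was 0.15 on the log2 scale between the R213G libraries and 0.01 between the WT libraries, less than the difference of -0.28 between genotypes. This was not a call (edgeR quasi-likelihood test, unadjusted p = 0.150, adjusted p = 0.9996). The log2 fold change was -0.28 ± 0.18 with a 95% interval from -0.68 to 0.12. It ranged from -0.36 to -0.21 when each library was left out. The libraries did not overlap in the lower direction for 15.2% of all genes tested and in the higher direction for 13.7%, together 28.9%. Among the 10 heat shock genes this held for 2 in each direction, Hsf1 and Hspa1a lower and Hsp90aa1 and Hspe1 higher.

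The inducible HSP70 genes had the widest difference and the fewest counts. Hspa1a (chromosome 17, 34969190 to 34972156, minus strand) had counts of 100 and 90 (R213G) against 199 and 137 (WT), or 2.76 ± 0.242 CPM against 5.01 ± 1.44 CPM. The 2 R213G libraries were close to each other and below both WT libraries, which lay 0.59 apart on the log2 scale. The log2 fold change was -0.86 ± 0.51 with a 95% interval from -1.99 to 0.28 (edgeR, unadjusted p = 0.124, adjusted p = 0.9996). It was -0.53 without WT replicate 1 and -1.13 without WT replicate 2. Hspa1b (chromosome 17, 34956436 to 34959238, minus strand) had counts of 77 and 54 (R213G) against 115 and 51 (WT). Here the genotypes overlapped, since WT held both the highest and the lowest library. Its log2 fold change was -0.38 ± 0.68 and became 0.35 without WT replicate 1.

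Because the copies could trade reads, the test was repeated with their counts summed. The sum came to 177 and 144 against 314 and 188 in the same order of libraries, or 4.66 ± 0.740 CPM against 7.49 ± 2.85 CPM. WT replicate 1 stood above the other 3 libraries, and WT replicate 2 was within 11 counts of R213G replicate 1. The log2 fold change of the sum was -0.68 ± 0.44, with a 95% interval from -1.67 to 0.32 (edgeR, unadjusted p = 0.158, adjusted p = 0.9996). It was -0.23 without WT replicate 1 and -1.03 without WT replicate 2. Counting error alone was 7.09% to 14.0% of the count for Hspa1a and Hspa1b in 1 library, against 0.512% to 3.20% for the other 8 genes. Gm10501, an antisense transcript that holds 8.0% of the Hspa1a windows, had counts of 42 and 9 (R213G) against 34 and 17 (WT). These equalled 42.0% and 10.0% of the Hspa1a counts in R213G, against 17.1% and 12.4% in WT.

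The constitutive HSP70 and its helpers had levels that differed more within a genotype than between genotypes. Hspa8 (chromosome 9, 40800984 to 40810087, plus strand) had counts of 11937 and 10375 (R213G) against 11267 and 9118 (WT), or 324 ± 36.4 CPM against 303 ± 53.2 CPM. Replicate 1 was the higher library in both genotypes, by 0.23 in R213G and 0.36 in WT on the log2 scale, against a log2 fold change of 0.09 ± 0.15. The 95% interval of that fold change was -0.23 to 0.42. Dnajb1 (chromosome 8, 83608193 to 83612653, plus strand), the HSP40 partner, had counts of 1552 and 1471 (R213G) against 1555 and 1325 (WT), with a log2 fold change of 0.04 ± 0.17. Hsph1 (chromosome 5, 149614287 to 149636376, minus strand), the exchange factor of the HSP110 family, had counts of 1489 and 1267 (R213G) against 1397 and 1284 (WT), with a log2 fold change of 0.01 ± 0.18. Their 95% intervals were -0.35 to 0.42 and -0.40 to 0.41. The sign of these 3 differences followed single libraries: without WT replicate 2 they were -0.07 for Hspa8, -0.10 for Dnajb1 and -0.08 for Hsph1, and without R213G replicate 1 they were -0.02, -0.02 and -0.13.

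The 2 cytosolic HSP90 genes did not behave alike in rank, though neither passed the test. Hsp90aa1 (chromosome 12, 110690605 to 110702728, minus strand) had counts of 1183 and 1290 (R213G) against 1053 and 1010 (WT), or 35.9 ± 1.71 CPM against 30.7 ± 1.72 CPM. Both R213G libraries were above both WT libraries, and the difference exceeded the gap within either genotype. Its log2 fold change was 0.23 ± 0.18 with a 95% interval from -0.18 to 0.63 (edgeR, unadjusted p = 0.239, adjusted p = 0.9996), and it stayed between 0.17 and 0.29 when each library was left out. Hsp90ab1 (chromosome 17, 45567775 to 45573271, minus strand) had counts of 37406 and 36495 (R213G) against 38179 and 35007 (WT), and the WT libraries lay on either side of the R213G libraries. Its log2 fold change was -0.02 ± 0.11, and the 95% interval from -0.28 to 0.24 was the narrowest of the 10 genes. It became 0.01 without R213G replicate 2 and 0.07 without WT replicate 1.

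The mitochondrial pair showed small positive differences. Hspd1 (HSP60, chromosome 1, 55077835 to 55088243, minus strand) had counts of 2257 and 2301 (R213G) against 2232 and 1930 (WT), or 66.1 ± 0.0140 CPM against 61.9 ± 7.99 CPM. WT replicate 2 was the lowest library and WT replicate 1 the highest, and without WT replicate 2 the log2 fold change of 0.10 ± 0.15 became -0.03. Hspe1 (HSP10, chromosome 1, 55088132 to 55091307, plus strand) had counts of 1087 and 1076 (R213G) against 975 and 982 (WT), or 31.4 ± 0.647 CPM against 29.1 ± 0.630 CPM. The genotypes did not overlap, but the log2 fold change of 0.11 ± 0.19 was smaller than its SE (95% interval -0.31 to 0.53). That SE, which draws on spread shared across genes, exceeded the log2 gaps of 0.042 within R213G and 0.044 within WT.

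**Figure D3:**
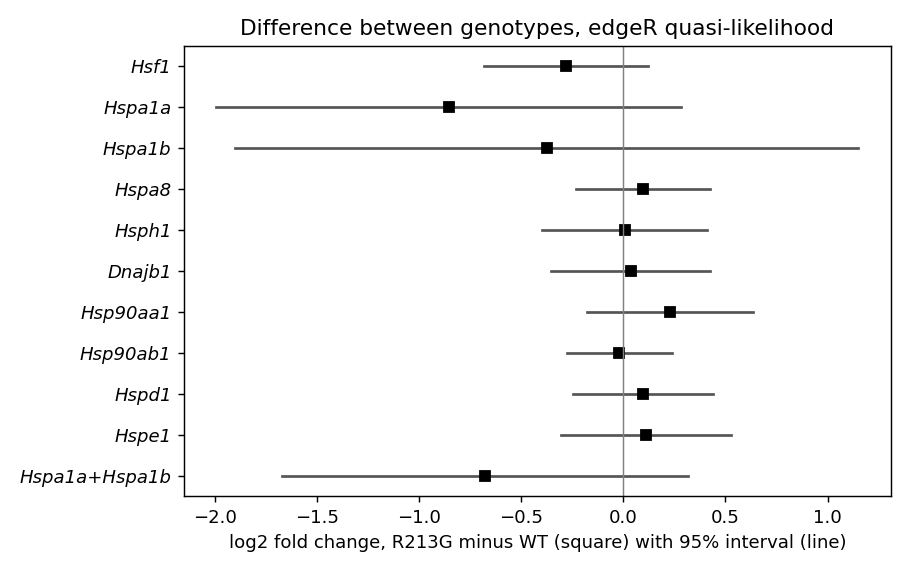
Squares give the log2 fold change of each heat shock gene, and of Hspa1a and Hspa1b summed, between R213G and WT (x axis, R213G minus WT), and lines give the 95% interval from the edgeR quasi-likelihood fit. Every interval includes 0, the widest being that of Hspa1b from -1.90 to 1.15 and the narrowest that of Hsp90ab1 from -0.28 to 0.24.

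Across the 10 genes, 0 passed in either direction at an adjusted p under 0.05 and 0 had an unadjusted p under 0.05 (edgeR), where 2.22% of all genes tested did. DESeq2, limma voom and the legacy form of edgeR also gave 0 of the 10 at either threshold. Of the fold changes, 6 were positive and 4 negative, with a median of 0.02, against a median of -0.01 over all genes tested. The members' median changed sign with single libraries, from -0.09 without WT replicate 2 and -0.04 without R213G replicate 1 to 0.09 without R213G replicate 2 and 0.16 without WT replicate 1. The difference between genotypes exceeded the gap within both genotypes for 4 of the 10 (Hsf1, Hspa1a, Hsp90aa1 and Hspe1) and for 16.9% of all genes tested.

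Ratios of counts within a library need no scaling between libraries, and 5 were compared. An exact permutation test of 2 against 2 libraries cannot give a two-sided p below 0.333. Hspa1a and Hspa1b together had 1.48% and 1.39% of the Hspa8 counts in the R213G libraries, against 2.79% and 2.06% in the WT libraries. Every R213G value of this inducible to constitutive HSP70 ratio was below every WT value, with a log2 difference of -0.74 against gaps of 0.10 within R213G and 0.43 within WT (exact permutation p = 0.333, two-sided, the smallest possible). Hsp90aa1 had 3.16% and 3.53% of the Hsp90ab1 counts in R213G and 2.76% and 2.89% in WT, so the inducible to constitutive HSP90 ratio was higher in both R213G libraries (log2 difference 0.25, exact permutation p = 0.333). The other 3 ratios overlapped between genotypes. Hspe1 had 48.2% and 46.8% of the Hspd1 counts in R213G and 43.7% and 50.9% in WT (log2 difference 0.01, exact permutation p = 1.0). Dnajb1 had 13.002% and 14.2% of the Hspa8 counts in R213G and 13.8% and 14.5% in WT, and Hsph1 had 12.5% and 12.2% against 12.4% and 14.1% (log2 differences -0.06 and -0.10, exact permutation p = 0.667 for each). No p adjusted over the 5 ratios can pass in this design.

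**Figure D4:**
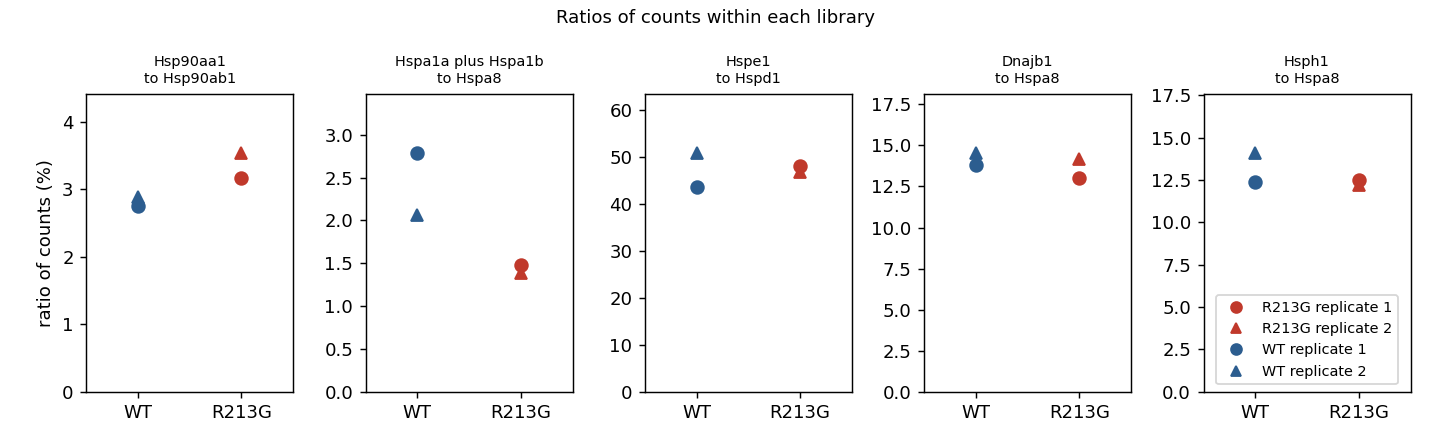
Points give, for each library, the counts of 1 heat shock gene as a percentage of the counts of its partner (y axis, %, from 0 in each panel), by genotype (x axis), with circles for replicate 1 and triangles for replicate 2. Only the Hsp90aa1 to Hsp90ab1 ratio (higher in R213G) and the Hspa1a plus Hspa1b to Hspa8 ratio (lower in R213G) have no overlap between genotypes.

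The other genes of the pathway were read from lists, with counts of members called given beside the 0% of all genes tested. No member of any list passed at an adjusted p under 0.05 (edgeR, 101 genes tested of 112 listed), and 1 of the 101 had an unadjusted p under 0.05, a smaller share than the 2.22% of all genes tested. That gene was Ptges3, which encodes the HSP90 cochaperone p23. It had counts of 1810 and 1705 (R213G) against 1151 and 1266 (WT), or 51.0 ± 2.84 CPM against 35.9 ± 1.46 CPM. Both R213G libraries lay above both WT libraries, and the log2 fold change was 0.51 ± 0.16 (unadjusted p = 0.0117, adjusted p = 0.9996). The 19 HSP70 and HSP90 cochaperones had 14 positive and 5 negative fold changes with a median of 0.14, against 49.1% positive and a median of -0.01 over all genes tested. The median was 0.04 without R213G replicate 1. The cochaperones of highest CPM, with no account of length, were the kinase-specific Cdc37 (log2 fold change 0.06 ± 0.12) and the HSP70-interacting protein St13 (0.05 ± 0.12), and Ahsa2, related to the HSP90 ATPase activator Ahsa1, stood at 0.40 ± 0.25.

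Among heat shock factors and their regulators, 3 of 6 tested fold changes were positive with a median of 0.01 (from -0.01 to 0.03 on leaving out R213G replicate 2 or 1). The HSF-binding protein gene Hsbp1 stood at 102 ± 0.702 CPM (R213G) against 105 ± 4.82 CPM (WT), and the ATPase Vcp was at 83.9 ± 2.89 and 80.4 ± 4.38 CPM. The related factor Hsf4 had counts of 101 and 176 (R213G) against 74 and 57 (WT) (log2 fold change 1.04 ± 0.59). The deacetylase gene Sirt1, whose product acts on HSF1, had counts of 377 and 738 (R213G) against 617 and 846 (WT) (-0.43 ± 0.32), with R213G replicate 1 the lowest. The HSP70 and HSP110 relatives had 3 of 6 positive with a median of 0.03, which was -0.04 without WT replicate 2. The HSP110 gene Hspa4 was at 242 ± 4.92 and 251 ± 20.8 CPM, and Hspa4l (0.12 ± 0.18), Hspa2 (0.33 ± 0.37) and the ribosome-linked Hspa14 (-0.16 ± 0.19) did not pass. Of 11 other HSP40 genes tested, 7 were positive with a median of 0.02, which was -0.01 without R213G replicate 1 or WT replicate 1 and 0.07 without R213G replicate 2. Among them were Dnajc5 (-0.01 ± 0.13), Dnaja2 (0.06 ± 0.13), Dnajc9 (0.33 ± 0.23) and Dnaja1 (0.23 ± 0.21).

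The genes listed as small heat shock proteins had few counts. Of 10 listed, 6 are in the table and 4 were tested, with 0 called. Hspb9 passed the filter on low counts through the WT libraries alone, so its direction was fixed by the filter and no median is given for the list. Hspb6 had counts of 76 and 253 (R213G) against 216 and 302 (WT). Hspb11 had 32 and 100 against 178 and 94, and Cryab, encoding alpha B-crystallin, had 0 and 113 against 136 and 98. R213G replicate 1, the library with the fewest genes detected, was the lowest for each of these 3 genes. Hspb9 had 0 counts in both R213G libraries and 16 and 14 in WT, and no fold difference is given for it.

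Chaperones of the organelles and the cytosolic chaperonin were all tested, with 0 called. Of 11 mitochondrial chaperones, 9 fold changes were positive with a median of 0.16, which was 0.083 without WT replicate 1, 0.11 when R213G replicate 1 was left out and 0.10 when R213G replicate 2 was. Hspa9, the mitochondrial HSP70, stood at 0.03 ± 0.12, the mitochondrial HSP90 gene Trap1 at 0.20 ± 0.14 and the protease unfoldase Clpx at 0.33 ± 0.23. The chaperonin TRiC, which folds actin and tubulin, and prefoldin, which delivers clients to it, had 13 of 14 positive with a median of 0.15, and 5 of the 14 had all R213G libraries above all WT libraries (13.7% of all genes tested). Tcp1 stood at 0.21 ± 0.12, Cct3 at 0.18 ± 0.13 and Cct2 at -0.02 ± 0.12. Without R213G replicate 1 the median of this list was -0.02. The 13 ER chaperones had 6 positive and a median of -0.02 (-0.07 without R213G replicate 2 and 0.04 without R213G replicate 1), with Calr (-0.03 ± 0.12), Pdia3 (0.02 ± 0.11), Dnajb11 (-0.07 ± 0.12) and Hyou1 (-0.06 ± 0.13) all within 0.1 of 0.

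Immediate-early genes, which respond within minutes to handling and to many signals, had 12 of 17 positive fold changes, against 49.1% of all genes tested, with a median of 0.09 and 0 called. The median ran from 0.0086 without R213G replicate 1 to 0.18 without WT replicate 1. Dusp1, a phosphatase of MAP kinases, stood at 77.7 and 45.7 CPM (R213G) against 47.1 and 38.1 CPM (WT) (log2 fold change 0.53 ± 0.24). Zfp36, an mRNA decay factor, stood at 318 and 211 CPM (R213G) against 244 and 180 CPM (WT) (0.32 ± 0.20), and Junb, a subunit of the AP-1 factor, at 350 and 263 against 293 and 236 CPM (0.21 ± 0.16). In each of these 3 genes, picked from the 17 by CPM or p, replicate 1 was the higher library of both genotypes. This order held for 7 of the 10 heat shock genes and for 24.3% of all genes tested. The part of cell handling in the levels of the heat shock genes was not tested.

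The genes most like Hsf1 over the 4 libraries, by Euclidean distance of centred log2 CPM among 9689 genes with a mean of at least 5 CPM, were Mag (0.021), Noc4l (0.032) and Tarsl2 (0.033). The median distance was 0.43, and 31 genes lay within 0.1. For Hspa1a and Hspa1b summed the nearest of 9690 genes were Pard6a (0.19), Mical3 (0.20) and Cxcl14 (0.24), with 0 genes within 0.1 and a median distance of 0.93. With 4 libraries such distances describe these samples only.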

How the data were processed

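STAR 2.5.1b, Subread 1.4.4 (featureCounts) and the build GRCm38 are named in the submitters' processing notes. The deposited values are raw counts, with a row for each gene symbol and a column for each library. For annotation, strand setting and multi-mapping reads, the choice is not given in the sources used here. The column names equal short names from the labels (RM1 and RM2 are R213G replicates 1 and 2, WTM1 and WTM2 the WT replicates). No 2 libraries agreed within sampling noise (chi-square per degree of freedom at least 17.5). The smallest value was that of R213G replicate 2 with WT replicate 2. Libraries of the same genotype gave 57.1 (R213G, the largest of all pairs) and 33.2 (WT).

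R213G was compared with WT over the whole table by the edgeR 4.0.16 quasi-likelihood test (version 4 form, robust, TMM, filterByExpr, 13575 genes, Benjamini-Hochberg, threshold 0.05, 2 residual degrees of freedom), which was tested on simulated data. The SE is the size of the fold change divided by the square root of F, which uses a spread shared in part across genes. Positions, exon lengths and transcripts came from GENCODE vM21 (GRCm38). Promoter sequences came from RefSeq (GRCm38.p6). Counting error is that of a Poisson count, and without molecular identifiers duplicate reads cannot be told from molecules.

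The members and lists were chosen with earlier results of these data known. Named genes were the 10 members, for each list the 2 of highest CPM and the 2 of smallest p, the highest of each marker list, and the 3 genes most like Hsf1 and the Hspa1a and Hspa1b sum (log2 CPM, prior count 2). Gm42418, the copies of members, Flt3, Cd209a, Xcr1, Clec9a and Siglech were named after their values were seen. Cryab and Sod3 were also named outside these rules. Alternatives were other scalings, filters and tests (DESeq2 1.42.0, limma 3.58.1), a replicate block, a threshold of 0.1, a pseudocount of 0.5 for ratios and leaving out each library. R 4.3.3 and Python 3.11.15 were used.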

Additional observations from a re-analysis of the deposited data

How the results depend on the processing

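Of 118 values of the 10 members under the alternatives, 108 kept their direction and 10 changed sign, all 10 on leaving out 1 library. Most of the 118 came from other scalings, filters and tests on the same 4 libraries, which moved most fold changes little. The 108 are therefore no measure of how directions hold between libraries. The count of members called was 0 in all 12 alternatives, as was that of the pathway lists. Over all genes, DESeq2 called 1 gene, leaving out each library gave 0 to 2 (2 without R213G replicate 2), and the other settings, adjusted p under 0.1 included, gave 0. Genes at an unadjusted p under 0.05 were 302, but 150 with a mean of at least 5 CPM, 201 by limma voom and 71 to 1960 on leaving out a library. Sign changes on leaving out each library gave ranges of -0.074 to 0.29 for Hspa8, -0.10 to 0.18 for Dnajb1, -0.13 to 0.13 for Hsph1, -0.11 to 0.072 for Hsp90ab1, -0.87 to 0.35 for Hspa1b and -0.031 to 0.23 for Hspd1. The log2 ratio differences ranged from -0.12 to 0.0017 for Dnajb1 to Hspa8 and from -0.10 to 0.12 for Hspe1 to Hspd1. The causes were not tested. In the fit with the replicate number as a block, 0 genes and 0 members were called and the Hspa1a and Hspa1b sum stood at -0.67. No label says that a number marks a shared animal, day or batch. Deviations of same-numbered libraries correlated at r = 0.093 across 13575 genes and at r = 0.19 across the 9690 genes averaging 5 CPM or more, and genes are not independent. Counting error was 7.09% to 14.0% for Hspa1a and Hspa1b, at 51 to 199 counts per library, while the WT libraries lay 0.59 and 1.23 apart on the log2 scale.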

Other observations

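In 7 of the 10 heat shock genes, replicate 1 was above replicate 2 in both genotypes, which held for 24.3% of all genes tested, and in 0 of the 10 was replicate 2 above replicate 1 in both (27.6%). The exceptions were Hsf1, Hsp90aa1 and Hspd1. Among the 7, Hspe1 had log2 CPM gaps of only 0.042 in R213G and 0.044 in WT. Its counting error was 3.03% to 3.20% per library. Hspa1a and Hspa1b, also among the 7, could trade reads and are not independent. The 8 dendritic cell markers split the libraries along the same numbers: they summed to 146 and 48.1 CPM in R213G replicates 1 and 2 and to 158 and 44.6 CPM in WT replicates 1 and 2. The sum of the 10 epithelial markers was also higher in replicate 1 of both genotypes, at 298 and 150 CPM in R213G and 217 and 154 CPM in WT. Their leading gene, the cadherin Cdh1, was at 187 and 84.6 CPM against 150 and 86.8 CPM. In WT, Cdh1 alone made up the difference in the sum, and the other epithelial markers together were not higher in replicate 1. The chemokine receptor Ccr7 was at 44.2 and 22.7 CPM in R213G and 80.0 and 16.3 CPM in WT. The growth factor receptor Flt3 counted 691 and 219 in the R213G libraries against 1010 and 244 in the WT libraries, and the lectin Cd209a counted 2113 and 356 against 1033 and 448. The dendritic markers Xcr1, Clec9a and Siglech had 0 to 36 counts in any library. Nothing in the labels ties the numbers to a day, a litter or a batch, and the part of dendritic or epithelial cells in the heat shock levels was not tested.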
